A study of Homo sapiens with 8 samples.

Results

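The 4 HOX gene clusters were read as 4 windows of the human genome build hg19. They were chromosome 7 from 27100000 to 27260000 for HOXA, chromosome 17 from 46590000 to 46820000 for HOXB, chromosome 12 from 54320000 to 54460000 for HOXC and chromosome 2 from 176930000 to 177070000 for HOXD. Every ATAC-seq peak that overlapped a window was taken, in every library. The windows held 181 of the 119972 peaks of the 8 libraries, and these merged into 58 of the 36845 open regions of the genome. The member genes are 38 HOX genes, 10 each of HOXA and HOXB and 9 each of HOXC and HOXD.

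The cells were 293T, an established line from human embryonic kidney with the large T antigen of SV40, with no treatment or genetic change named in the labels. They were crosslinked, permeabilised and tagmented with a transposase, which inserts adapters into open DNA, and then put on Q Sepharose, an anion exchanger. The unbound material gave the library FT, and successive NaCl washes at 20, 100, 200, 300, 500, 700 and 1000 mM gave the libraries G20, G100, G200, G300, G500, G700 and G1000, each named by its salt. Each fraction was 1 library of this 1 cell line without replicates, so the tests compare these libraries and not the conditions. The peaks inside the G200 list are named G50_200, and the sources do not settle whether that list is of the 200 mM wash alone.

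HOX genes encode homeodomain transcription factors that give cells their position along the body axis. Within each cluster they lie in a row, and in the embryo they are switched on in that order, a property known as colinearity. Genes with the same number in different clusters are paralogues. In differentiated cells Polycomb complexes keep part of a cluster silent, Trithorax complexes keep part of it active, and posterior members of the clusters are expressed in parts of the developing urogenital tract.

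Promoter sequences of member genes are shown first because they range from CpG-rich to CpG-poor. RefSeq (GRCh38.p14) promoter sequences were matched by symbol for 20 of the 38 genes, as 27 records, 7 of them of HOXA3. HOXA and HOXD gave 24 of the 27, HOXB 1 and HOXC 2, and the HOXC records, of HOXC4 and HOXC5, are the same interval. The 3 shown are the 250 bases before the gene start, 5′ to 3′ on the strand of the gene, with each CpG in capitals. They are HOXA13 (chr7:27200092-27200341, minus strand), HOXD13 (chr2:176092471-176092720, plus strand) and HOXB1 (chr17:48531012-48531261, minus strand), each the outermost member on its side of a cluster.
HOXA13: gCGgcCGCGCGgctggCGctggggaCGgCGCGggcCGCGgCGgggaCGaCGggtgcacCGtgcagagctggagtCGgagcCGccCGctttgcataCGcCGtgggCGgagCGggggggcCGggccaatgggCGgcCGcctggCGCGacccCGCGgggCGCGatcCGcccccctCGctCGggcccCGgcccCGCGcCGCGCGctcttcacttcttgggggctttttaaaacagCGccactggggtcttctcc
HOXD13: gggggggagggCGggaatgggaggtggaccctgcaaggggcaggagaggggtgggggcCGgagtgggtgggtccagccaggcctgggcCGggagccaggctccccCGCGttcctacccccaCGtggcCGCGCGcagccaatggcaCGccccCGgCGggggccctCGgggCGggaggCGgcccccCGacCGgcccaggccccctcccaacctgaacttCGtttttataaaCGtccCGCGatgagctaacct
HOXB1: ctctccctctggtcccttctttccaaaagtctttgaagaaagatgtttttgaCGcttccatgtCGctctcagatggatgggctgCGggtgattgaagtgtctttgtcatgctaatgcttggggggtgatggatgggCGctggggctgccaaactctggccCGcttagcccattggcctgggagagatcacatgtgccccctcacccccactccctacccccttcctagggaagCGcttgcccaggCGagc

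The HOXA13 promoter held 40 CpG, the most of the 27 records, and was 78% G or C. The HOXD13 promoter held 21 CpG at 74% G or C, and that of HOXB1 held 7 at 57.2%. Over the 27 records the median was 19 CpG (range 0 to 40), beside a median of 11 over 35116 promoter records of all genes. The median was 19 in the HOXA records, 22 in HOXD and 14 in HOXC, so the group value is mainly one of HOXA and HOXD, and the 1 HOXB record lay below that of all genes. With 1 record per gene the HOX median was 20.5. The observed number of CpG over that expected from base composition had a median of 0.888 in the HOX records and 0.558 in all records. CCAAT, read on both strands, was present in 66.7% of the HOX records and 32.0% of all records, and in each of the 3 shown. TATAAA was present in 18.5% against 10.7%, and of the 3 shown only the HOXD13 promoter holds it. GGGCGG, which itself contains a CpG, was present in 48.1% against 42.6%, and HOXA13 and HOXD13 hold it. These are matches of letters, and records can overlap. The peaks are in hg19 and the promoters in GRCh38.p14, so no peak was placed on a promoter here.

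All 4 clusters were open at several places, and their regions lay closer together than on the rest of their chromosomes. HOXA held 18 regions, or 11.2 per 100 kb of window, against 1.27 per 100 kb over the rest of chromosome 7. HOXB held 14 regions (6.09 per 100 kb against 1.77 on chromosome 17), HOXC 14 (10.0 against 1.32 on chromosome 12) and HOXD 12 (8.57 against 1.15 on chromosome 2). HOXA was the densest cluster and HOXB the sparsest. The windows were drawn around genes and the chromosome values include gene-free stretches, and the part that gene density has in the difference was not tested. Merged regions covered 6.53% of the HOXA window, 3.55% of HOXB, 5.48% of HOXC and 5.60% of HOXD.

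**Figure D1:**
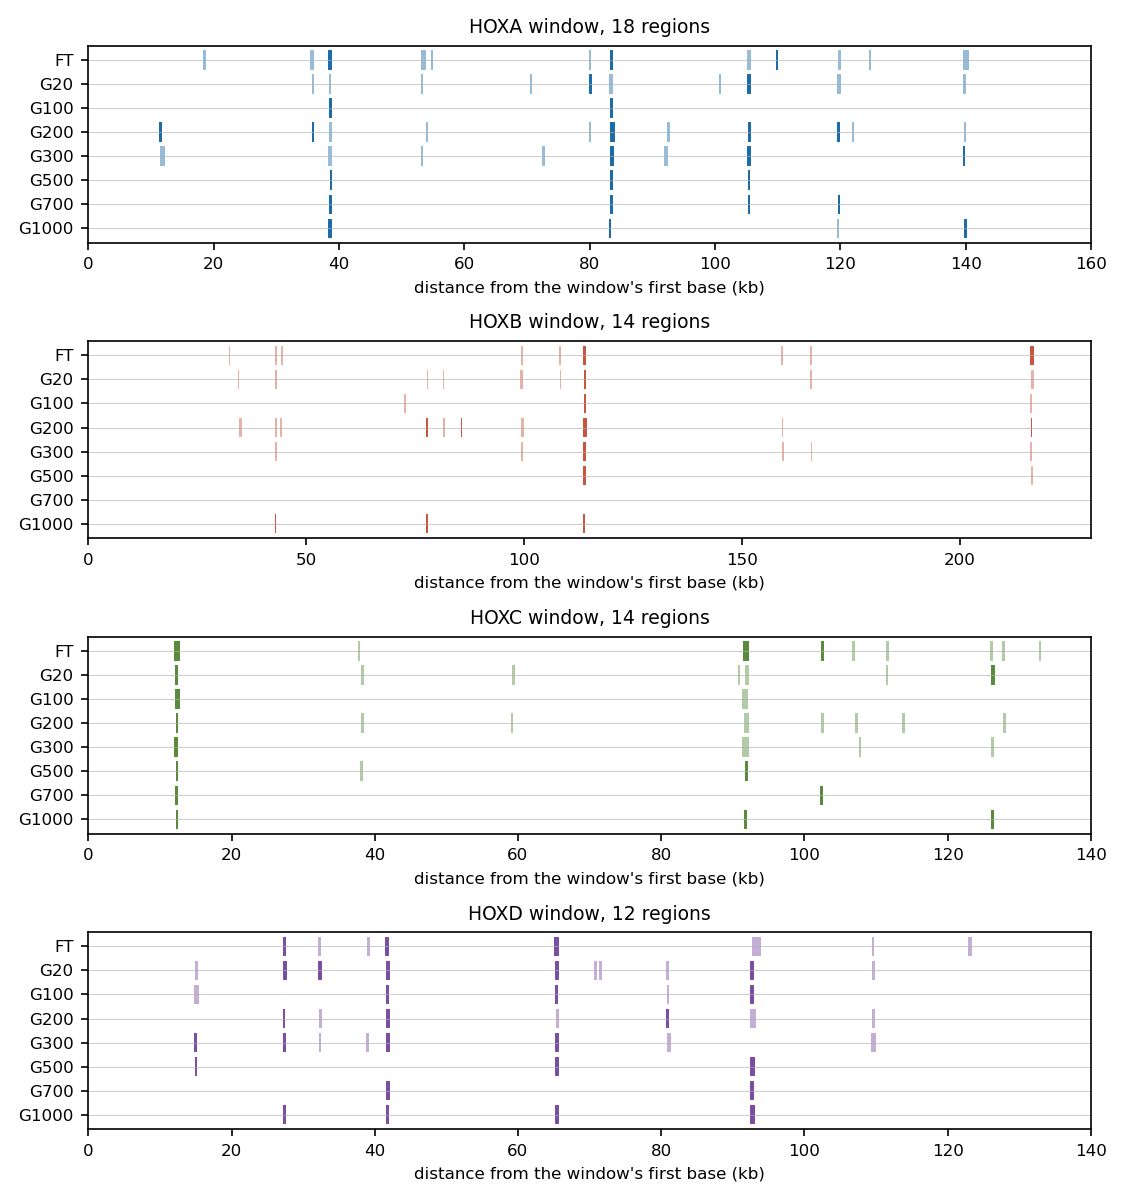
Position of every peak in the 4 HOX windows, by library. The horizontal axis is the distance in kb from the first base of the window and each row is 1 library; dark bars are peaks among the 8102 of highest −log10 q of their list, pale bars the other peaks, and short peaks are drawn slightly wider than they are. HOXC region 1, at the left end of its panel, is dark in all 8 libraries, and the HOXB row of G700 is empty.

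The open regions were not spread evenly along the clusters. Regions are numbered here from the low-coordinate end of each window. In RefSeq gene order HOXA runs from HOXA2 to HOXA13 and HOXB from HOXB1 to HOXB13, while HOXC starts with HOXC13 and HOXD with HOXD13. The HOXA regions were spread over the whole window, with a longest stretch without a peak of 16.8 kb. In HOXB regions 1 to 11 were followed by stretches of 44.5 kb and 49.9 kb without a peak, with regions 12 and 13 between them. HOXB region 14 (46806017 to 46806922) then lay alone on the side of HOXB13, the member that stands apart from the rest of its cluster. In HOXC the longest such stretch was 31.1 kb (54379583 to 54410679), and 11 of the 14 regions lay beyond it, on the side of HOXC4, HOXC5 and HOXC6. In HOXD it was 22.8 kb (176972175 to 176995012), and 5 regions lay on the HOXD13 side of it and 7 on the HOXD1 side. Whether a region covers the start of a given gene was not read.

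Few HOX regions were called open in every fraction, where a call is a peak in the list of that library. Of the 58 regions, 3 were called in all 8 lists, or 5.17%, where the background over all regions of the genome was 11.5%. HOXA had 2 of them, HOXC 1, and HOXB and HOXD none. Another 5 were called in 7 lists, 3 of these in HOXD, so 13.8% of HOX regions were in 7 or 8 lists against 17.8% of all regions. At the other end 20 of the 58 regions (34.5%) were called in 1 list alone, beside a background of 40.7%. The other regions lay in between, with 10 regions in 2 lists, 6 in 3, 8 in 4, 4 in 5 and 2 in 6. As a share of HOX and of all regions this was 17.2% and 13.8% in 2 lists, 10.3% and 8.71% in 3, 13.8% and 6.96% in 4, 6.90% and 6.17% in 5, and 3.45% and 5.77% in 6. The median HOXD region was in 4 lists, against 2 in HOXA, 2.5 in HOXB and 2 in HOXC. Over all HOX regions the median was 2 lists, the same as over all regions of the genome.

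None of the 58 HOX regions was called in FT, G20 and G100 with no call in G500, G700 and G1000. Over all regions 1143 were, a background of 3.1%. The reverse pattern had 0 of 58 as well, beside 2 regions in the genome, or 0.00543%. The first pattern needs a call in G100, which held only 12 HOX peaks. A count of 0 among 58 regions does not set the HOX regions apart from these small background shares. Of the 20 single-list regions 8 were in FT, 5 in G20, 4 in G200, 2 in G300 and 1 in G100, and there was none in G500, G700 or G1000, the 3 shortest lists. Over all 15013 single-list regions FT, the longest list, also had the most, at 4360 (29.0%), with 2694 in G20, 2345 in G200, 3109 in G300 and 1023 in G100, and 349 to 568 in each of the 3 shortest.

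The strongest and most widely shared open site was HOXC region 1 (chromosome 12, 54331997 to 54332816), the first region of the window, on the side of HOXC13. Its summit carried 28 reads in FT, 25 in G20 and 19 in G100, 22 in G200 and 43 in G300, and 13 in G500, 14 in G700 and 15 in G1000. Reads here are the pileup at the summit, recovered from the fold and p-value that the authors' peak caller printed. They are not scaled for depth, and the expected share of a shared region's reads ran from 7.99% in G700 to 17.1% in FT. The caller's −log10 q, larger for a stronger peak, is its p-value corrected over the list. The G300 library was highest, with the peak of highest −log10 q of any HOX peak (30.3, rank 496 in its list). The lowest −log10 q was 7.16, in G500. The 8 summits lay within 162 bp. It was the only HOX region in all 8 lists when each list was held to the 8102 peaks that rank highest by −log10 q, the length of the shortest list, and also when a −log10 q of at least 5 was asked for.

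HOXA region 10 (chromosome 7, 27183125 to 27184049) lay near the middle of the HOXA window. It carried 31 reads in FT, 24 in G20 and 17 in G100, 24 in G200 and 32 in G300, and 17 in G500, 13 in G700 and 15 in G1000. Before scaling FT and G300 had the most reads and G700 the fewest. Over the reads expected from each library's share, HOXA region 10 ran from 0.867 in G20 to 1.13 in G300, with G700 at 0.940. Its reads sat on a raised surrounding signal, with a local background of 10.2 times the genome background in the median library, and its folds (summit pileup over local background) were between 3.77 (G200) and 5.44 (G300) although it held nearly as many reads in all (173) as HOXC region 1 (179). The summits spread over 276 bp.

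HOXA region 4 (27138223 to 27138932), on the side of HOXA2, was the weakest of the 3. It carried 25 reads in FT, 16 in G20 and 19 in G100, 10 in G200 and 15 in G300, and 10 in G500, 8 in G700 and 14 in G1000, 117 in all. Its −log10 q was highest in G100 (9.97) and lowest in G700 (1.99). G200 held its second-weakest peak by −log10 q (2.63).

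Of the 5 regions in 7 lists, 3 missed a call in G700 alone. HOXB region 11 (46703491 to 46704317), the last region before the first long stretch without peaks toward HOXB13, had 28 reads in FT, 24 in G20 and 18 in G100, 27 in G200 and 17 in G300, and 14 in G500 and 11 in G1000. HOXC region 5 (54411224 to 54412215) had 25 in FT, 17 in G20 and 10 in G100, 12 in G200 and 18 in G300, and 11 in G500 and 12 in G1000. HOXD region 6 (176995013 to 176995791) had 22 in FT, 17 in G20 and 12 in G100, 14 in G200 and 19 in G300, and 13 in G500 and 10 in G1000. FT had the most reads in each of the 3 before scaling. Over the reads expected from the library's share of the region, the highest library was G200 in HOXB region 11 (1.43, FT 1.08), FT in HOXC region 5 (1.28) and G500 in HOXD region 6 (1.19, FT 1.11). HOXB region 11 was the strongest region of its cluster by mean rank, with a −log10 q of 5.04 to 16.0.

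HOXD held the other 2. HOXD region 5 (176971429 to 176972174), before the longest stretch without peaks of its window, was missed by G500 and was the strongest HOXD region by mean rank. It had 27 reads in FT, 24 in G20 and 20 in G100, 30 each in G200 and G300, and 15 in G700 and 19 in G1000. HOXD region 10 (177022356 to 177023883) was missed by G300, although G300 is the second-longest list. It had 11 reads in FT, 15 in G20 and 10 each in G100 and G200, and 9 in G500, 7 in G700 and 10 in G1000. G20 had the most reads. Scaled by library, G1000 was highest (1.21 times the expected reads) and FT lowest (0.747).

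A missing call is not the same as closed chromatin. For each absence the reads expected were estimated from the lists that did call the region, scaled by library, and set beside the reads the caller needs over the background typical of the region. The estimate uses calling lists only and so leans high. In G700, HOXB region 11 was expected to hold 12.1 reads where 7 were needed, HOXC region 5 was expected at 9.12 against 8, and HOXD region 6 at 9.29 against 6. HOXD region 5 was expected at 17.1 reads in G500 against 10 needed, and HOXD region 10 at 14.1 in G300 against 7 needed. All 5 expectations were above the need. Over the 58 regions there were 283 absences, and in 75 of them the expected reads were below those needed, 27 of these in G700 and 0 in G20. The reads at a place with no call cannot be recovered, so the size of a drop was not measured.

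Other regions named for their rank or width were called in fewer lists. HOXA region 14 (27209721 to 27210016), the HOXA region of highest mean rank, was called in FT alone, with 30 reads, a width of 296 bp and a −log10 q of 9.78. It was the strongest of the 20 single-list HOX regions. The widest region of HOXA was region 5 (27153044 to 27154196, 1153 bp), called in FT, G20, G200 and G300 with summits 836 bp apart, so it joins separate summits. The widest of HOXB was region 2 (46624234 to 46625233, 1000 bp), called in G20 and G200. HOXC region 5, described above, was the widest of its cluster with 992 bp, and HOXD region 10 the widest of all with 1528 bp. The width of HOXD region 10 rests on its FT peak of 1271 bp, with a −log10 q of 3.58. Its peaks in the other calling lists were 548 bp (G700) to 794 bp (G200) wide. The widest region of the genome had 3414 bp, and 325 of the 36845 regions (0.882%), HOXD region 10 among them, were at least 1528 bp wide.

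A region in 6 lists was chosen after its values were seen, for its level in G200. HOXA region 13 (27205133 to 27205763) had 24 reads in FT, 25 in G20, 45 in G200, 25 in G300, 13 in G500 and 10 in G700, with no call in G100 or G1000. G200 stood above every other library, at 2.49 times the 18.1 reads expected from the other 5 calling lists, and its −log10 q there was 22.0 (rank 695). The same region had in G200 a local background of 22.5 times the genome background, against 7.63 to 9.44 in the other 5 libraries. No test was made, since the read test covered regions called in all 8 lists.

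The number of HOX peaks was highest in FT, the longest list, and lowest in G700, the shortest. FT held 38, G20 36, G100 12, G200 36, G300 26, G500 11, G700 8 and G1000 14. As a percent of the list this was 0.167 in FT, 0.185 in G20 and 0.0906 in G100, 0.225 in G200 and 0.132 in G300, and 0.106 in G500, 0.0987 in G700 and 0.137 in G1000. The highest share was that of G200 and the lowest that of G100, so neighbours in the label order stood at opposite ends. With every list held to 8102 peaks the counts were 11 in FT, 10 in G20 and 7 in G100, 13 in G200 and 9 in G300, and 9 in G500, 8 in G700 and 13 in G1000. G100 stayed lowest and G200 stayed highest, now level with G1000. At a −log10 q of at least 5 neither held. As a share of the whole list, G200 (15 of 15988) was then below G20 (20 of 19484), and G100 (6 of 13244) was above G700 (2 of 8102). The lists in these shares were not cut at that −log10 q. Their median −log10 q differed, at 5.45 in G200, 6.03 in G20, 5.37 in G100 and 5.06 in G700. All these HOX numbers are counts from single libraries, and the order of neighbours has no replicate error.

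**Figure D2:**
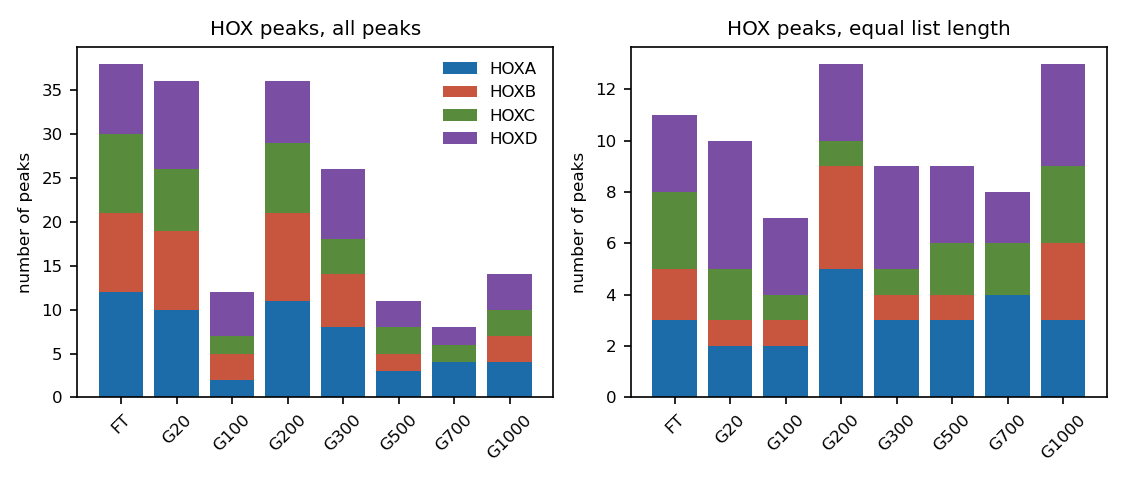
Number of HOX peaks per library, stacked by cluster. The left panel uses all peaks (38 in FT to 8 in G700) and the right panel the 8102 peaks highest in −log10 q in each list, where the counts lie between 7 and 13; the vertical axes differ.

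The clusters shared the main pattern across the libraries and differed in detail. Each had fewer peaks in G100 than in G20 or G200, and at most 4 in G500, G700 or G1000. HOXA had 12 peaks in FT, 10 in G20 and 2 in G100, 11 in G200 and 8 in G300, and 3 in G500, 4 in G700 and 4 in G1000. HOXB had 9, 9, 3, 10, 6, 2, 0 and 3 in the same order, and its absence from G700 was the only empty cluster in any list. HOXC had 9, 7, 2, 8, 4, 3, 2 and 3. HOXD had 8, 10, 5, 7, 8, 3, 2 and 4, and supplied 5 of the 12 HOX peaks of G100 where HOXA supplied 2. The reads of the HOXB regions in G700, the shortest list, cannot be recovered without a call, and HOXB peaks had a median of 13 reads where called.

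HOX peaks were mostly a little narrower than the median peak of their list. Their median was 438 bp in FT, 435 in G20 and 495 in G100, 439.5 in G200 and 457.5 in G300, and 422 in G500, 393.5 in G700 and 384 in G1000. The list medians were 527, 460, 462, 477, 488, 450, 418 and 443 bp, so the HOX median was below that of its list in 7 of 8 libraries and above it in G100 alone. Single peaks ran from 261 bp in G20 to 1271 bp in FT, the latter being HOXD region 10. By cluster the median peak width was 416.5 bp in HOXA, 417 in HOXB, 433.5 in HOXC and 493 in HOXD. Over the peaks of all libraries the median −log10 q was 5.92 in HOXD, against 4.57 in HOXA, 4.98 in HOXB and 4.15 in HOXC, and the median fold 5.53 against 4.20, 4.88 and 4.43. Within libraries HOXD had the highest median −log10 q in 6 of 8, and HOXC in G100 (7.78 against 5.11 in HOXD) and G700 (5.46 against 4.45). HOXC had only 2 peaks in each of G100 and G700, and HOXB had none in G700. HOXA, also with 2 peaks, was above HOXD in G100 as well (7.32).

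**Figure D3:**
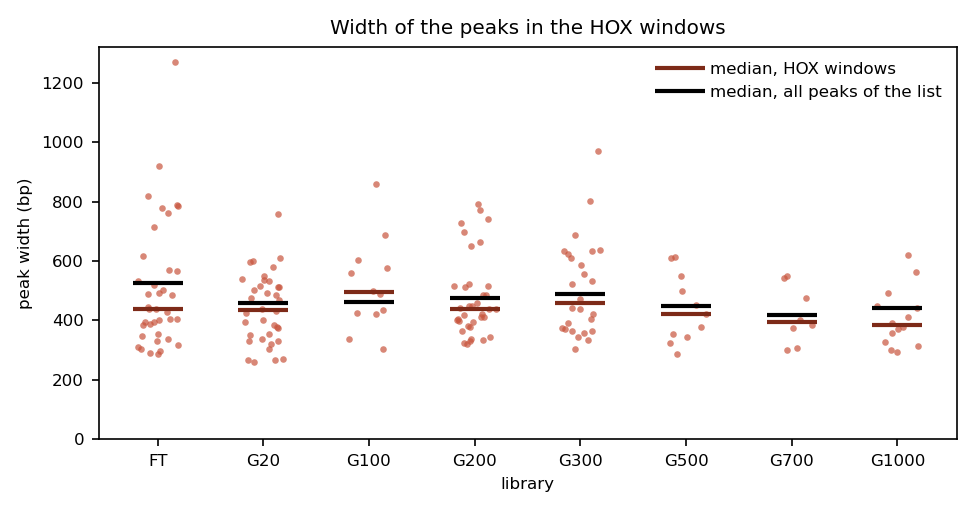
Width in bp of each HOX peak by library, with points spread sideways only to separate them. Bars mark the median of the HOX peaks and of all peaks of the list; the HOX median is the lower one in every library but G100.

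Over the 7 salt libraries none of 4 trends with salt passed after Benjamini-Hochberg adjustment. The median width fell with salt with Spearman's rho −0.75 (exact permutation p = 0.0663, two-sided, adjusted 0.265) and Pearson's r −0.82 (exact permutation p = 0.0242, adjusted 0.0968). With the 2 libraries farthest from the middle salt, G700 and G1000, left out, r was −0.45, so over these 7 libraries the relation rests on them. Without G200 r was −0.83 (exact permutation p = 0.0444, adjusted 0.178). The 2 farthest of those 6 libraries were others, G20 and G1000. With them left out r was −0.998, a value from only 4 points (G100, G300, G500 and G700). The median width of all peaks of a list was also lower in G500, G700 and G1000 (450, 418 and 443 bp) than in G20 to G300 (460 to 488 bp). Whether the HOX peaks narrowed more than the lists was not tested. For the share of the list's peaks rho was −0.18 (exact permutation p = 0.713) and r −0.35 (exact permutation p = 0.452). For the share of the list's covered bases rho was −0.43 (exact permutation p = 0.354) and r −0.44 (exact permutation p = 0.337). For the number of peaks rho was −0.58 (exact permutation p = 0.187) and r −0.61 (exact permutation p = 0.149). At equal list length the last 3 turned direction, with a rho of 0.13 for the share of peaks and for their number and of 0.14 for the share of bases. The share of peaks and their number are then the same trend by construction, since every list has the same length.

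HOX peaks lay on a higher local background than the median peak of their list. The caller compares each summit with the reads expected there from its surroundings. Divided by the lowest such value of the list, taken as the genome background, this local background had a median of 5.39 in the HOX peaks of FT, 5.60 in G20 and 3.87 in G100, 8.76 in G200 and 5.61 in G300, and 4.58 in G500, 5.72 in G700 and 5.00 in G1000. Over all peaks of the lists the medians were 2.54, 2.75, 3.13, 3.74, 2.63, 3.39, 3.33 and 3.29 in the same order. The HOX median was higher in all 8 libraries, and the HOX peaks above their list's median numbered 30 of 38 in FT, 27 of 35 with a recovered value in G20, 8 of 12 in G100, 33 of 36 in G200, 18 of 26 in G300, 8 of 11 in G500, 7 of 8 in G700 and 12 of 14 in G1000. Peaks of 1 place recur in several libraries and neighbouring peaks share their surroundings, so these counts carry no test.

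**Figure D4:**
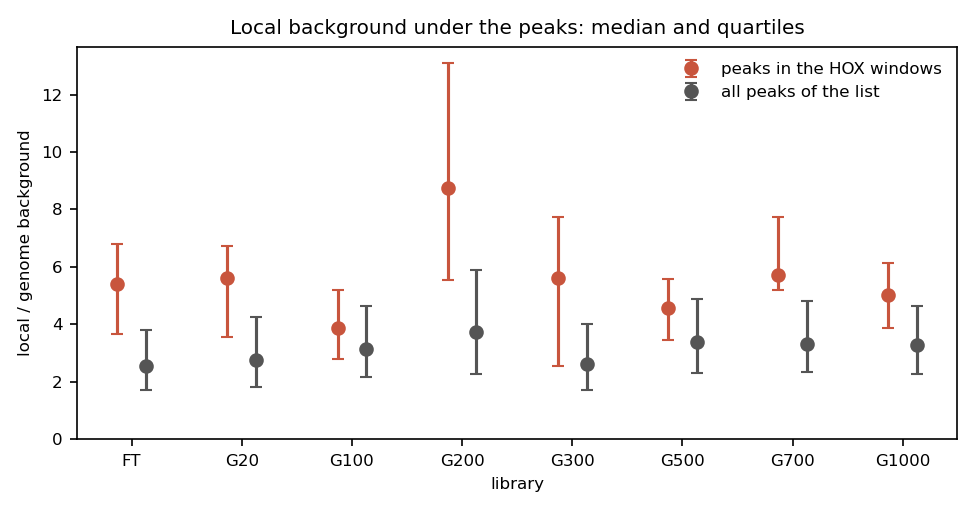
Local background under the peaks divided by the genome background of the list, by library. Points are medians and bars run from the first to the third quartile, for the HOX peaks and for all peaks; the HOX median is above that of all peaks in each library and highest in G200 (8.76).

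The local background differed with position inside the clusters. Over the peaks of all libraries the median was 7.72 in HOXA, 5.69 in HOXC, 4.58 in HOXB and 3.62 in HOXD. Within libraries HOXA had the highest median in all 8, while the lowest was HOXD in 3, HOXB in 3 and HOXC in 2. Some of these medians rest on few peaks, with 2 of HOXA in G100, and HOXB had no peak in G700. In FT it was 6.92 in HOXA, 6.02 in HOXC, 4.27 in HOXD and 2.52 in HOXB. In HOXA region 2 stood at 1.12 in FT, the 1 library that called it. HOXA region 9 stood at a median of 11.0 (10.0 in FT, 11.0 in G20 and 22.7 in G200). In HOXB regions 12 and 13, between the long stretches without peaks, stood at 1.63 and 1.47, and HOXB region 14 on the HOXB13 side at 2.53. HOXB region 8, called in G200 alone, stood at 15.4. In HOXD region 1 stood at 1.23 and regions 2 to 5 at 6.04 to 8.18, while regions 6 to 12, across the 22.8 kb stretch, stood at 2.24 to 3.64. Region values are medians over the lists that called the region, and those lists differ between regions. Values in G200 ran higher than in the other lists, as given below, and the part of that in the differences by position was not tested. Reads of neighbouring open sites count toward a local background, and their part in these values was not tested.

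The HOX summits had more reads than the median peak and a lower fold. The median HOX fold was 4.31 in FT against 5.35 over the list, and it was below the list median in each of the 8 libraries, from 5.59 against 5.72 in G100 to 4.48 against 5.79 in G20. The median reads at HOX summits were 19 in FT against 14, 15 in G20 against 12, 14 in G200 against 10 and 15 in G300 against 12. In G100 and G700 they were level with the list, at 11 and 10. The median HOX reads were at or above the list median in all 8 libraries.

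The local background of the HOX regions was higher in G200 than in the other libraries. Regions called both in G200 and in FT numbered 25, and in 25 of 25 the local background ratio was higher in G200, with a median of 1.82 times that of FT. Over all 11971 regions shared by these libraries the median was 1.37. The ratio was also higher in G200 in 26 of 26 HOX regions shared with G20 (median 1.92, all regions 1.30), 10 of 10 with G100 (1.88, 1.32), 19 of 20 with G300 (1.76, 1.35), 10 of 10 with G500 (1.76, 1.36), 8 of 8 with G700 (1.86, 1.45) and 13 of 13 with G1000 (1.87, 1.40). Libraries other than G200 set against FT had HOX medians of 0.920 to 1.07. These comparisons share the G200 library and many of the regions. G200 also has the lowest genome background of the 8 lists, 0.239 reads against 0.248 in G700 and 0.662 in FT, and the part of that in the ratio was not tested. In G200 the median ratio was 13.4 in HOXA, 9.25 in HOXB, 8.57 in HOXD and 6.70 in HOXC.

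Read numbers at the 3 regions called everywhere gave no call in the test between libraries. For each region the reads of 1 library were set against the other 7 with an exact binomial test, fitted over all 4220 regions with reads in all 8 lists. Of the 24 HOX tests 0 were called, beside a background of 0.578% of 33760 tests (exact binomial test, Benjamini-Hochberg adjusted). At an unadjusted p under 0.05 there was 1, HOXC region 1 in G300, against 5.55% of all tests. Its 43 reads stood against 29.4 expected from its share of the reads of all 8 libraries there, a ratio of 1.46 (95% Poisson interval 1.06 to 1.97, counting error only; exact binomial p = 0.00844, adjusted p = 0.482). The interval in the other 23 tests includes 1. HOXA region 4 in G100, with a ratio of 1.47, had the next smallest value (95% Poisson interval 0.883 to 2.29, exact binomial p = 0.0775, adjusted p = 1). Over the 24 tests the upper bounds of the intervals ran from 1.26 to 2.29 and the lower bounds from 0.329 to 1.06. The bounds are not adjusted for the number of tests, and the 1 interval that left out 1 gave no call. They therefore do not give the size of a difference that the test could miss.

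Summed reads of FT, G20 and G100 against G500, G700 and G1000 gave 0 calls in the 3 regions, beside a background of 0.332% of the 4220. The ratio of the low-salt to the high-salt side over its expectation was 1.14 in HOXA region 4 (95% interval 0.734 to 1.82), 0.977 in HOXA region 10 (0.664 to 1.45) and 1.05 in HOXC region 1 (0.706 to 1.57), each with an adjusted p of 1 in the exact binomial test. None had an unadjusted p under 0.05, against 4.93% of all regions. Summed over the 3 regions, reads over expectation were 1.05 in FT, 0.866 in G20 and 1.06 in G100, 0.958 in G200 and 1.17 in G300, and 0.907 in G500, 0.934 in G700 and 0.980 in G1000. The summed ratio of G200 (95% Poisson interval 0.724 to 1.24) includes 1, as do those of the other 7 libraries. Scaled by genome background instead, the summed ratio of G200 was 1.47 (95% Poisson interval 1.11 to 1.92) and that of FT 0.799 (0.638 to 0.990). With that scaling HOXA region 10 in G200 moved from 1.11 to 1.71 (exact binomial p = 0.0111, adjusted p = 0.149) and HOXC region 1 in FT from 0.915 to 0.698 (exact binomial p = 0.0311, adjusted p = 0.282), and neither was called. The scaling sets 1 share per library for every region of the genome, and it changed the G200 expectation over the 3 regions from 58.5 to 38.0 reads. Over the genome the test of 1 library against the other 7 made 1514 calls with background scaling, against 195 before. The summed ratio of G200 thus depends on the scaling, and the change is one of the whole library.

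**Figure D5:**
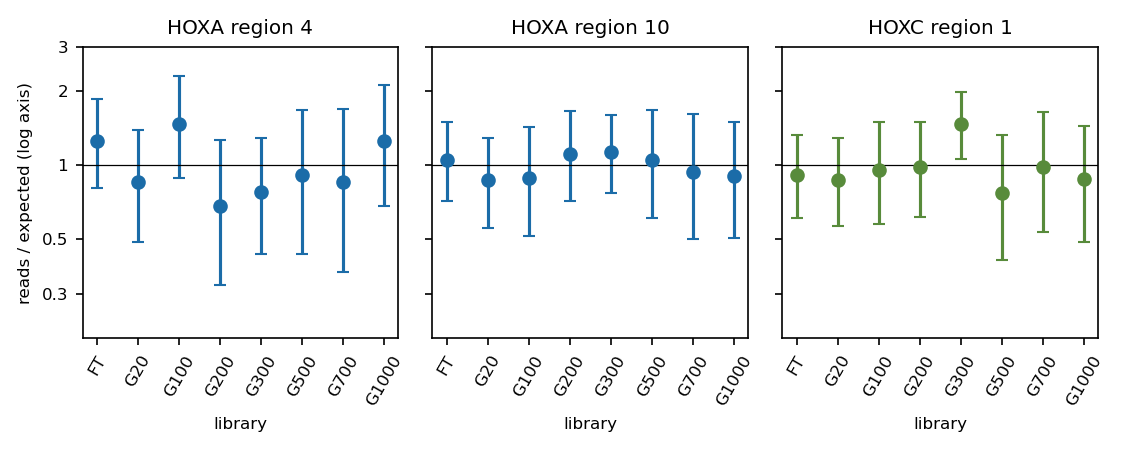
Reads at the summit over the number expected from each library's share of reads in shared regions, on a log axis, for the 3 HOX regions called in all 8 lists. Bars are 95% Poisson intervals; only G300 in HOXC region 1 (1.46) has an interval that leaves out 1.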

How the data were processed

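ATAC-seq was made from 8 fractions of 293T cells, 1 library each. The submitters' processing notes name MACS2 2.2.1, Bowtie2 2.2.6, HOMER and the builds hg19 and mm10; chromosome names and positions here are those of hg19. Read filters, any shift for the transposase and the settings of the caller were not given in the sources used here. The authors called peaks per library. In the standard narrowPeak column order, each deposited list holds an integer score, a fold (the ratio of the pileup at the summit to its background), a −log10 p and a −log10 q per peak.

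Peaks sharing at least 1 bp were merged across lists into regions. Taking the fold as pileup plus 1 over background plus 1 and the p-value as Poisson, the authors' fold and −log10 p were solved together for a whole-number pileup (match within 0.001) and its background, with a match in at least 99.98% of the peaks of a list and in 180 of the 181 HOX peaks with a single solution. The lowest background of a list served as its genome background. The depth of a library as a read total is unknown. Expected read shares came from 4098 shared regions on placed chromosomes, at least 20 kb from chromosome ends and 1 Mb from each chromosome's longest peak-free stretch. Read tests were exact binomial tests (two-sided, Benjamini-Hochberg adjusted over all regions, threshold 0.05), and trends exact permutation tests over 5040 orders (scipy 1.17.1, statsmodels 0.14.6, python 3.11.15). The scripts were tested on simulated data. Intervals cover counting error only, and reads without molecular identifiers are not independent molecules.

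Alternatives were lists of equal length, a −log10 q of at least 5, summits within 100 bp, summit position, scaling by genome background, FT added to the trends by rank, and G200 or FT left out. Named were regions in at least 7 lists and, per cluster, the region of highest mean rank and the widest. Members, windows and lists were chosen with earlier results of these data known. Start sites in hg19 were not used here, so HOX cofactors, Polycomb and Trithorax genes, noncoding genes in the clusters and markers of 293T and other cell types were not analysed here.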

Additional observations from a re-analysis of the deposited data

How the results depend on the processing

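With each list held to 8102 peaks, HOX peaks numbered 11 in FT, 10 in G20 and 7 in G100, 13 in G200 and 9 in G300. This kept peaks down to a −log10 q of 7.89 in FT and of 1.32 in G700, so lists of equal length were not equally strict. With a −log10 q of at least 5 there were 23 in FT, 20 in G20 and 6 in G100, 15 in G200 and 16 in G300, and 4 in G500, 2 in G700 and 8 in G1000. The 58 regions became 25 at equal length and 36 at the stricter −log10 q, by construction from fewer peaks, and 86 when joined by summits within 100 bp. Regions in all 8 lists were 1 at equal length, 1 at the stricter −log10 q and 2 when joined by summits, and 3 were in all of the other lists without G200. Taking peaks by summit position changed no count of peaks. At equal length the rho of the trends with salt turned to 0.13 for the share of peaks and 0.14 for the share of bases, and the cause was not tested. The number of peaks has the same rho as their share there by construction, since every list then holds 8102 peaks. Scaling by genome background moved the summed ratio of the 3 shared regions in G200 from 0.958 to 1.47. The read tests called 0 HOX regions under every alternative run, with a smallest adjusted p of the exact binomial test of 0.149 under background scaling, 0.696 without G200 and 0.656 without FT. No paired analysis was possible because each fraction is 1 library. Depth limits what can be seen: HOX peaks held a median of 10 to 19 reads at the summit.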
